A study of Mus musculus with 10 samples.

Results

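Genes for proteins of the mitochondrial ribosome were chosen by name, as every mouse gene symbol that starts with Mrpl or Mrps followed by a digit. Names of pseudogenes ending in -ps, of which there were 6, were left out. This gave 78 genes of 52324 with a symbol. All 78 were among the 12345 genes that reached an FPKM of 1 or more in at least 2 libraries, and each of the 78 reached that level in all 10 libraries. By their known place, 51 belong to the large subunit, 26 to the small subunit and Mrps36 to neither. Mrps30 and Mrps18a carry small-subunit names but sit in the large subunit, and were counted there. Mrps36 is a subunit of the α-ketoglutarate dehydrogenase complex.

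The libraries are bulk RNA of tumours grown under the skin from 4T1 cells, a mammary carcinoma line of the mouse, and harvested on day 14. There are 10 libraries, 2 in each of 5 groups. Tumours were given MK1775 in a Free form, as Free-MK1775 or with a second drug as Free-MK1775+NLG919, or in a Lipo form, as Lipo-MK1775 or with the second drug as Lipo-MK1775+NLG. The negative control received PBS, per the design text, which also writes NLG919 in full for the second Lipo group. MK1775 inhibits the cell cycle kinase WEE1, and NLG919 inhibits the IDO1 pathway of tryptophan breakdown. Doses, what the Free and Lipo forms are made of and the number of mice are not stated, so p-values here cover the spread between libraries, which may be technical.

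The mitochondrial ribosome translates the few messenger RNAs encoded in mitochondrial DNA, which make core subunits of the respiratory chain and ATP synthase. Its rRNAs are transcribed in the organelle, while all of its proteins are encoded in the nucleus, made in the cytosol and imported. Some of these proteins descend from bacterial ribosomal proteins and others were added in mitochondria. Tumour cells that rely on respiration need both sets of parts.

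Upstream sequences of members are shown because nuclear genes for mitochondrial proteins often carry sites for the factors NRF1, the ETS family (which includes GABP) and YY1. RefSeq promoter windows on GRCm38.p6, each 300 bases long, from 250 before to 50 after a start, were matched for 69 members by symbol. The ETS letters CCGGAAG, searched on both strands, were in the windows of 26 of the 69 members (37.7%), against 9.93% of 27025 genes. The YY1 letters AAGATGGCG were in 8 members (11.6%), against 1.64% of genes. The NRF1 letters GCGCANGCG were in 16 members (23.2%), against 7.03% of genes, and their form GCGCATGCG, which the first search includes, was in 7 members (10.1%), against 1.95% of genes. CCAAT was found in 39.1% of members and 41.1% of genes, and TATAAA in 7.25% of members and 15.7% of genes. Member windows had a median GC content of 58.4%, against 52.4% for all windows. A share depends on the letters searched, and a match names no bound factor. No window was used for Mrps34, Mrps35, Mrpl4, Mrps28, Mrpl54, Mrpl15, Mrpl13, Mrpl19 and Mrpl38. The 250 bases before the start of 4 members follow, 5′ to 3′ on the gene's strand, with matches in capitals. Mrpl32 and Mrps18b show NRF1 matches. There are 3 counting both strands in Mrpl32, because its stretch GCGCATGCGC holds an overlapping match on each strand, and 1 in Mrps18b. Mrpl3 shows an ETS match, and Mrps11, which shares its start region with Mrpl46, a YY1 match on the opposite strand. Of the 6 members that fell in Lipo-MK1775 tumours, Mrps5, Mrps9 and Mrpl50 have no match to these 3 motifs in their upstream bases. A match stood there in 3 of the 6 (50%), against 28 of the 63 other members with a window (44.4%).
Mrpl32 (chr13:14613038-14613287, minus strand): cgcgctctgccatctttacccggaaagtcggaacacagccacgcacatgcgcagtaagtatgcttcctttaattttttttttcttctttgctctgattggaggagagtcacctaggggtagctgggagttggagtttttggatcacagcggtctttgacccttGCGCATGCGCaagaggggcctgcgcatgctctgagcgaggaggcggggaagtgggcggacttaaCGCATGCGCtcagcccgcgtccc
Mrpl3 (chr9:105053018-105053267, plus strand): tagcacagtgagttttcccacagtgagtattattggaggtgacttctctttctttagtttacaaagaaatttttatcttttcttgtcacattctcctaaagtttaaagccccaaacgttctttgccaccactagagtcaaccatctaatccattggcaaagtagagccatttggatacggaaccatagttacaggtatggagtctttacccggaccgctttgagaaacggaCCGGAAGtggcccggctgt
Mrps11 (chr7:78782881-78783130, plus strand): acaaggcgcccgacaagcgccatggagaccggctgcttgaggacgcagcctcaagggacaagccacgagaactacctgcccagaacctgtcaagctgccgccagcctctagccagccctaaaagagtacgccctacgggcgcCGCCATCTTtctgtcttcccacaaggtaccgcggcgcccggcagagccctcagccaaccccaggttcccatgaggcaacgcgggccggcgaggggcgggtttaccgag
Mrps18b (chr17:35916441-35916690, minus strand): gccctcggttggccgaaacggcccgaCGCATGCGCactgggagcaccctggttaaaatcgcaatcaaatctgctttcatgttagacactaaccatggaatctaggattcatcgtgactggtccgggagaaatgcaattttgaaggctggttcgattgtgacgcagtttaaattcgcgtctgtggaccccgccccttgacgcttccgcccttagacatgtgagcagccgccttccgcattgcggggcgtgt

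Mitochondrial transcripts took 47.3% of all FPKM in Free-MK1775+NLG919 replicate 2, and 64.1% and 56.0% in the Lipo-MK1775 libraries. They took 2.88% to 4.82% in the other 7 libraries. Values below are therefore given in nuclear TPM unless another scale is named. Nuclear TPM is FPKM rescaled so that all transcripts outside the mitochondrial chromosome sum to 1000000 in each library. Both Lipo-MK1775 libraries have a high mitochondrial share, so treatment and that share cannot be told apart in this group. Relative depth, read from the smallest steps of the values, ran over a 1.96-fold range, and the smallest was a Lipo-MK1775 library. Depth for nuclear transcripts alone was not estimated. By deposited FPKM, 8568 and 9505 genes reached 1 in Lipo-MK1775 tumours, and 9633 did for replicate 2 of Free-MK1775+NLG919. The other 7 libraries had 11313 to 11566. Rn18s had 3655, 3618 and 3220 FPKM in these 3 libraries, against 523 to 1738 elsewhere. The part of these differences in the Lipo-MK1775 contrasts was not tested. The epithelial keratins Krt8 (292 to 759) and Krt18 (638 to 1093) were present in every library. The other epithelial markers were low, with Epcam between 0 and 12.2, Krt19 between 0.41 and 2.16 and Cdh1 between 0.59 and 13.3. In such bulk tissue, fewer cells of a type and less RNA per cell cannot be told apart.

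The members covered a 38.1-fold range in the control, with a mean of 9.61 for Mrpl1 and 367 for Mrpl52, and a median of 41.4. This median lay at the 68.9th percentile of all genes tested. Mrpl52, a mitochondria-specific protein of the large subunit, led in every group, with 492.6 and 551.3 in Lipo-MK1775 tumours against 332.8 and 400.6 in control tumours. Mrpl13, Mrpl30, Mrpl42 and Mrpl12 came next in control tumours, with means of 243, 176, 155 and 154. Mrpl1, Mrps10, Mrpl48, Mrpl19 and Mrpl17 were the lowest, with control means of 9.61, 10.6, 10.9, 11.2 and 13.0. The 2 control libraries of Mrpl1 stood apart, at 14.1 and 5.09, and with assembled transcripts added they were 14.8 and 17.3. Mrpl48 was then the lowest and the range was 33.5-fold. Most steps in this order were within the spread, since 64 of the 77 neighbouring pairs had overlapping control libraries. Large-subunit genes had a median of 44.1 and small-subunit genes of 33.9. Proteins with a bacterial homologue had a median of 52.4 and mitochondria-specific proteins of 34.9. The genes are spread over 17 chromosomes, with 11 on chromosome 11. Loci of 41 members overlap another symbol. Mrpl46 (chr7:78424984-78433279, minus strand, GRCm39) and Mrps11 (chr7:78432867-78442737, plus strand) overlap each other at their starts, and with no strand setting stated their reads there cannot be told apart.

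The summed RNA for mitoribosomal proteins stayed near the same share of the nuclear signal in libraries whose mitochondrial rRNA differed more than 10-fold. The 78 genes summed to 0.456% and 0.472% in Lipo-MK1775 tumours, against 0.459% and 0.463% in control tumours. Nuclear respiratory chain genes also stayed near the same share, at 1.97% and 2.19% in Lipo-MK1775 against 2.04% and 2.22% in control tumours. Cytosolic ribosomal protein genes did not, at 22.9% and 23.3% in Lipo-MK1775 against 13.4% and 14.8% in control tumours. The small mitochondrial rRNA, mt-Rnr1, had 26683 and 15841 nuclear TPM in the Lipo-MK1775 libraries, against 876 and 738 in the control libraries. Its group mean was 26.3-fold higher in Lipo-MK1775 tumours, and that of the large rRNA, mt-Rnr2, was 17.6-fold higher, while the mean of the summed members was 1.01-fold that of the control. The median member was lower, at 34.8 and 34.6 nuclear TPM in Lipo-MK1775 tumours against 43.9 and 38.4 in control tumours. Free-MK1775+NLG919 gave the same picture within a group, with a member sum of 0.504% and 0.527% and mt-Rnr1 at 675 and 10628 in replicates 1 and 2. The share was 0.516% and 0.466% in Free-MK1775 tumours, and 0.496% and 0.507% in Lipo-MK1775+NLG tumours. The libraries of these 3 groups all lay above both control libraries. With assembled transcripts added, Free-MK1775 replicate 2, at 0.492%, lay between the control values of 0.486% and 0.495%. Both Lipo-MK1775 libraries, at 0.464% and 0.483%, then lay below both control values, and their mean sum was 0.965-fold that of the control.

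**Figure D1:**
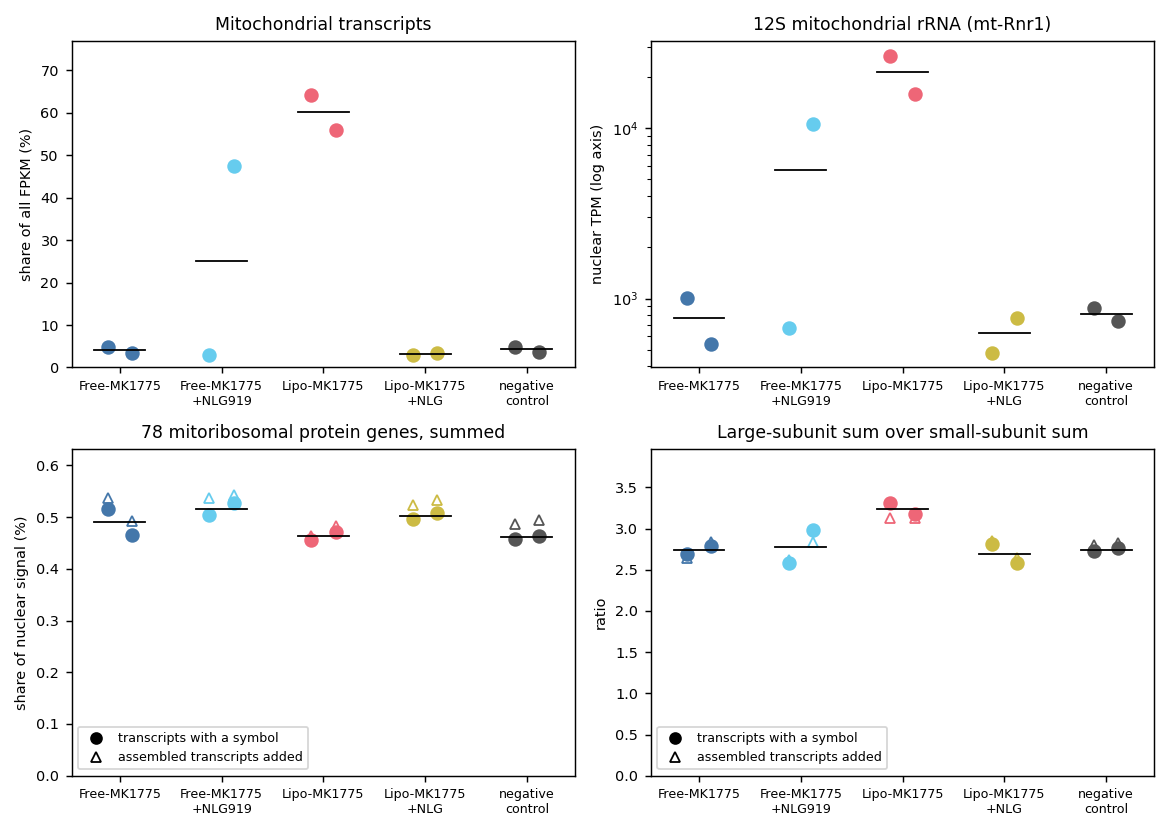
Values by library (points) and group mean (lines) for the share of mitochondrial transcripts in all FPKM, mt-Rnr1 in nuclear TPM on a log axis, the 78 members' share of nuclear signal, and the ratio of large- to small-subunit sums. Triangles add assembled transcripts that lack a symbol. The first 2 panels set 3 libraries apart, while the members' share stayed between 0.456% and 0.527% for points. For triangles it ran from 0.464% to 0.542%.

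The ratio between the subunits was higher in these libraries; no test was made of it. The large-subunit sum was 3.31 and 3.18 times the small-subunit sum in Lipo-MK1775 tumours, against 2.73 and 2.76 in control tumours. Free-MK1775+NLG919 gave 2.59 in replicate 1 and 2.98 in replicate 2. The remaining libraries lay between 2.58 and 2.81, so the 3 libraries of high mitochondrial share were the 3 highest. When assembled transcripts without a symbol were added, both Lipo-MK1775 libraries stayed highest at 3.13, and Free-MK1775+NLG919 replicate 2, at 2.83, fell inside the range of 2.62 to 2.85 of the 7 other libraries.

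Lipo-MK1775 against control gave the most calls of the comparisons with the control. With limma on log2(nuclear TPM + 1), 7 members passed a Benjamini-Hochberg adjusted p under 0.05 over all genes tested, 1 higher and 6 lower. Across all genes 26.7% were called, 1.6% higher and 25.2% lower, so 6 of 78 members lower (7.69%) was below the background share. The members' median change was -0.21 log2 units, against -0.86 for all genes, and 28 of the 78 lay above 0, against 14.4% of all genes. Both Lipo-MK1775 libraries were above both control libraries for 17 members and below them for 39, against 7.69% and 72.8% of all genes. With median-of-ratios scaling, which moves the median of all genes to -0.04, the members' median was instead 0.63, 72 of 78 lay above 0, and the 9 called were all higher. The sign of the members' own change thus depended on the scale. Their distance from the median gene was 0.65 in nuclear TPM, 0.05 with no filter on low values and -0.03 with the mitochondrial ratio as covariate, so it depended on the genes and terms in the fit. The call count rested on single libraries: it was 0 without either control, either Lipo-MK1775 or either Lipo-MK1775+NLG library, 1 without either Free-MK1775 library, and 34 without either Free-MK1775+NLG919 library.

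**Figure D2:**
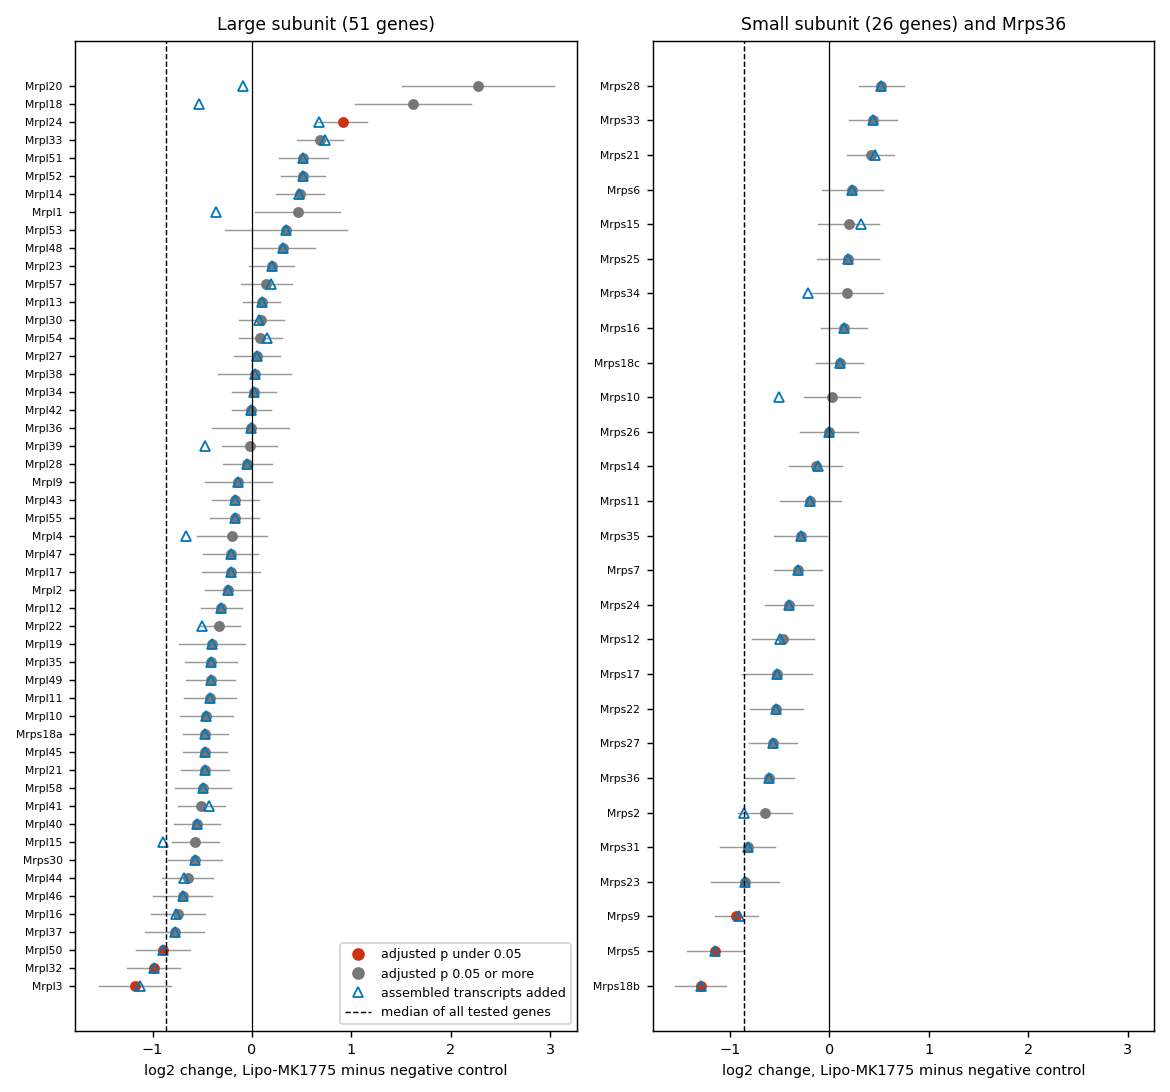
Log2 change of each member in Lipo-MK1775 minus negative control (horizontal axis), with large-subunit genes on the left and small-subunit genes and Mrps36 on the right; points are fitted changes in log2(nuclear TPM + 1), lines are ± 1 SE and triangles add assembled transcripts. Most members lie right of the dashed line, the all-gene median of -0.86, and the largest points, Mrpl20 and Mrpl18, move to -0.09 and -0.53 as triangles.

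Small-subunit genes held 3 of the 6 falls. Mrps18b, a mitochondria-specific member of the S18 family, had 25.1 and 26.5 nuclear TPM in Lipo-MK1775 tumours against 68.0 and 61.5 in control tumours. It fell by 1.29 log2 units (SE 0.26, limma adjusted p = 0.0248), and the Free-MK1775 (59.1, 60.3) and Lipo-MK1775+NLG (61.7, 68.9) libraries all lay above both Lipo-MK1775 libraries. Free-MK1775+NLG919 had 41.7 and 27.7, so its replicate 2 was next to the Lipo-MK1775 values. Mrps18b lies at chr17:36221271-36227281 on the minus strand (GRCm39) and overlaps the antisense symbol Gm16279. Mrps5, from a bacterial protein near the mRNA entry, had 13.0 and 12.3 in Lipo-MK1775 tumours against 30.2 and 28.6 in control tumours, and it fell by 1.15 log2 units (SE 0.28, limma adjusted p = 0.0300). Mrps9, a protein of the small-subunit head, had 45.7 and 54.7 in Lipo-MK1775 tumours against 100.9 and 92.3 in control tumours. It fell by 0.93 log2 units (SE 0.22, limma adjusted p = 0.0284), with no overlap of the groups.

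Large-subunit genes held the other 3 falls and the only rise. Mrpl3, a core protein near the catalytic centre, had 11.6 and 10.6 in Lipo-MK1775 tumours against 25.6 and 27.1 in control tumours, and fell by 1.18 log2 units (limma adjusted p = 0.0445). Its lowest library was Free-MK1775+NLG919 replicate 2, at 8.77. Mrpl32, known as a protein that is matured by a protease of the inner membrane, had 11.8 and 9.78 in Lipo-MK1775 tumours against 22.1 and 22.5 in control tumours. It fell by 0.99 (limma adjusted p = 0.0341), and here Free-MK1775+NLG919 replicate 2, at 20.5, stayed with the other groups. Mrpl50, a mitochondria-specific protein, had 19.6 and 17.0 in Lipo-MK1775 tumours against 36.6 and 33.1 in control tumours, and fell by 0.90 (limma adjusted p = 0.0425). Mrpl24, a protein beside the peptide exit tunnel, had 127.9 and 91.7 in Lipo-MK1775 tumours against 50.3 and 64.8 in control tumours. It rose by 0.91 log2 units (SE 0.24, limma adjusted p = 0.0341). Every library of the other treated groups was also above both control libraries for Mrpl24. These had 107.0 and 103.0 in Free-MK1775+NLG919, 82.1 and 77.9 in Free-MK1775, and 68.7 and 74.95 in Lipo-MK1775+NLG tumours. With assembled transcripts added, the change of Mrpl24 in Lipo-MK1775 against control was 0.67. All 7 members kept the sign of their change under each alternative tried, but none of the 7 calls held under every scaling. With deposited FPKM the 6 falls were called and Mrpl24 was not. With median-of-ratios and with quantile scaling, Mrpl24 was the only one of the 7 still called. The falls were then as small as -0.04 for Mrpl50 and -0.05 for Mrps9 with median-of-ratios scaling, and -0.08 for Mrpl32 with quantile scaling. On GRCm39, Mrps5 lies at chr2:127429142-127448749 and Mrps9 at chr1:42890393-42944843, both on the plus strand. Mrpl3 (chr9:104930438-104957087) and Mrpl24 (chr3:87826813-87830979) are on the plus strand, and Mrpl32 (chr13:14782769-14787750) and Mrpl50 (chr4:49512596-49521093) on the minus strand. The loci of Mrps9, Mrpl3 and Mrpl24 overlap the symbols Gm23126, Gm38077 with Gm47106, and Rrnad1, so their values are uncertain to that extent.

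**Figure D3:**
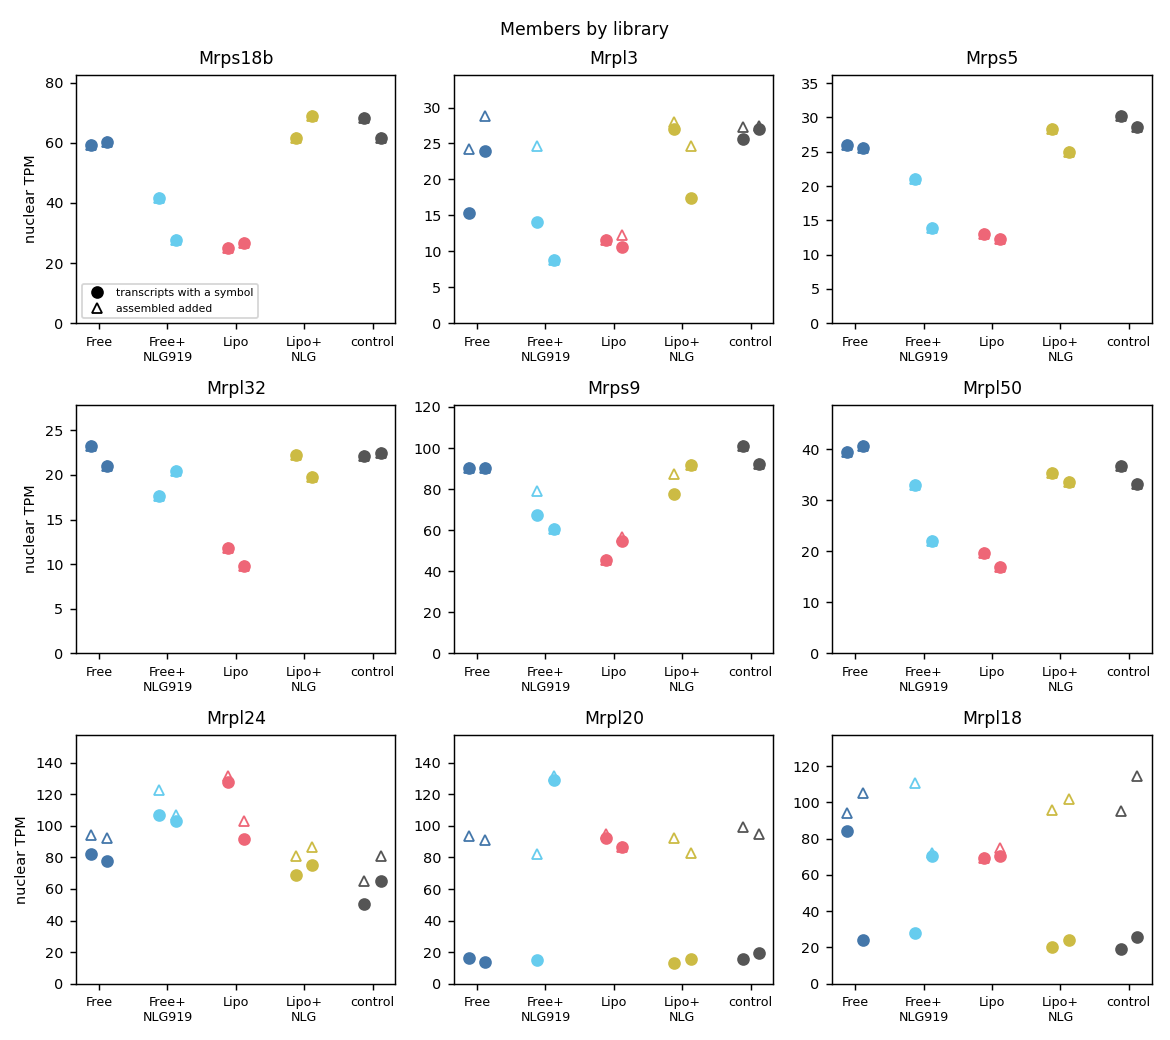
Nuclear TPM of 9 members by library in each group; filled points sum transcripts with a symbol and open triangles add assembled transcripts. Lipo-MK1775 values are low for the 6 members that fell, and for Mrpl20 and Mrpl18 the gap between points and triangles is wide in most libraries other than the 3 of high mitochondrial share.

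The largest point estimates among the members, Mrpl20 and Mrpl18, depended on which transcripts were summed. Mrpl20, a large-subunit protein with a bacterial homologue, had 92.0 and 86.4 in Lipo-MK1775 tumours and 129 in Free-MK1775+NLG919 replicate 2, against 16.0 and 19.5 in control tumours. The 7 libraries of low mitochondrial share lay between 12.8 and 19.5. Its change of 2.27 log2 units against the control had a limma adjusted p of 0.0547. With the assembled transcripts of its locus added, it had 95.0 and 86.6 in Lipo-MK1775 tumours against 99.0 and 94.6 in control tumours, a change of -0.09. Mrpl18, a protein of the central protuberance, had 69.1 and 70.7 in Lipo-MK1775 tumours against 19.1 and 25.5 in control tumours, and 84.2 in Free-MK1775 replicate 1; its locus overlaps Tcp1 on the other strand. With assembled transcripts it had 69.1 and 75.05 in Lipo-MK1775 tumours against 95.4 and 114.4 in control tumours, so that its change turned from 1.62 to -0.53.

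Members with other known roles gave values rather than calls in Lipo-MK1775 against control. Among 5 stalk genes, whose proteins recruit translation factors, the median change was -0.31 and none was called; Mrpl12, also reported to bind the mitochondrial RNA polymerase, had 121.9 and 127.1 in Lipo-MK1775 tumours against 157.3 and 151.4 in control tumours. The 7 exit tunnel genes had a median of -0.21, with Mrpl24 the only call. Mrpl45, which tethers the ribosome to the inner membrane, changed by -0.47 (limma adjusted p = 0.122), and Mrpl44, with a ribonuclease III fold, by -0.65 (limma adjusted p = 0.0835). The 7 head genes had a median of -0.29. The 5 central protuberance genes had a median of 0.03, or -0.53 with assembled transcripts added. Mrpl58, a peptidyl-tRNA hydrolase built into the large subunit, changed by -0.49, and Mrps12, at the decoding centre, by -0.46; neither passed. The S18 paralogs gave different values, -0.47 for Mrps18a, -1.29 for Mrps18b and 0.10 for Mrps18c, and of these Mrps18b alone was called. Mrps36 of the dehydrogenase complex changed by -0.61 (limma adjusted p = 0.0940). With median-of-ratios and with quantile scaling, the changes of Mrpl12, Mrpl45, Mrpl44, Mrpl58, Mrps12, Mrps18a and Mrps36 were above 0.

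Changes in Lipo-MK1775 tumours were lower for members with longer transcripts. The 26 members whose leading transcript is under 1000 bases had a median change of 0.09 against the control, with 16 above 0. The 27 members from 1000 to under 2000 bases had a median of -0.31, with 6 above 0, and the 25 of 2000 bases or more a median of -0.41, with 6 above 0. All genes tested in the same classes had medians of 0.00, -0.53 and -1.05, so the members lay above the other genes by a margin that was widest for long transcripts. Across the 78 members, change and log2 length had a Pearson r of -0.29, against -0.43 across 12345 genes; these describe genes of the same libraries, which are not independent. Against the control, the r over members was -0.30 in Free-MK1775+NLG919, 0.05 in Free-MK1775 and -0.02 in Lipo-MK1775+NLG.

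**Figure D4:**
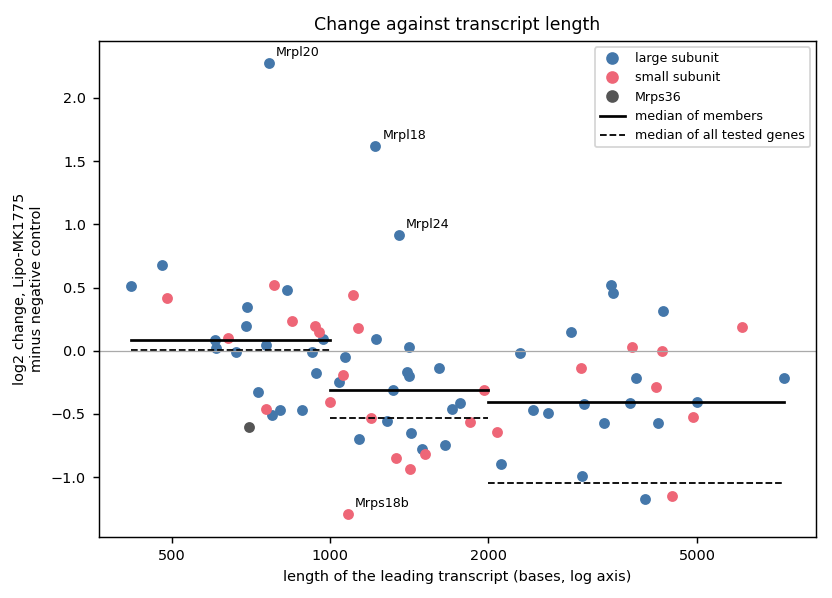
Log2 change in Lipo-MK1775 minus negative control (vertical axis) against the length of each member's leading transcript in bases on a log axis. Solid lines give the members' medians of 0.09, -0.31 and -0.41 in 3 length classes, and dashed lines the medians of all genes tested.

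Free-MK1775+NLG919 held its own contrast, since its replicate 2 alone had a high mitochondrial share. Between its replicates the members differed by a median of 0.41 log2 units in size, against 0.11 to 0.13 within each other group. All genes did so by 0.86, against 0.20 to 0.30 within each other group. Replicate 2 minus replicate 1 and Lipo-MK1775 minus control share no library. Across the 78 members these differences had a Pearson r of 0.63 and a Spearman rho of 0.51, with the same sign for 57 members (73.1%). Across all genes r was 0.47, with the same sign for 10286 of 12345 (83.3%). Without Mrpl18 and Mrpl20, r over members was 0.42. Mrps18b, Mrps5, Mrpl3 and Mrpl50 were low in replicate 2 as in Lipo-MK1775, while Mrpl32 was not. Mrpl3 had 14.1 in replicate 1 and 8.77 in replicate 2, but 24.7 and 8.77 with assembled transcripts added. Mrps9 had 67.4 and 60.6 in replicates 1 and 2, against 100.9 and 92.3 in control tumours. The role of the mitochondrial share in either difference was not tested.

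**Figure D5:**
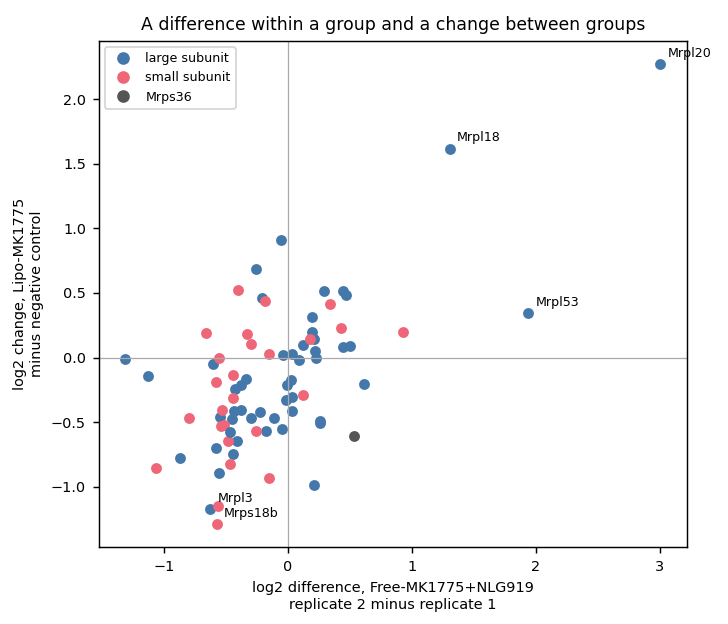
Log2 difference of Free-MK1775+NLG919 replicate 2 minus replicate 1 (horizontal axis) against log2 change of Lipo-MK1775 minus negative control (vertical axis), 1 point per member. The points rise together with r = 0.63 over 78 members, and Mrpl20 and Mrpl18 stand at the upper right.

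Cell type markers were counted in the same way in Lipo-MK1775 against control. Of 19 markers of other cell types, 9 were lower in both Lipo-MK1775 libraries than in both control libraries, namely Ptprc, Csf1r, Pdgfra, Pecam1, Cdh5, Acta1, Ckm, Myh4 and Hbb-bs, and 0 were higher. This is 47.4%, against 72.8% of all genes lower. Of 5 epithelial markers, Krt8, Krt19, Epcam and Cdh1 were lower in the same way, and the summed level of all 5 ran from 939 to 1446 nuclear TPM in Lipo-MK1775 tumours, against 1283 to 1838 in control tumours. The sum of the other 19 ran from 985 to 2432 nuclear TPM in Lipo-MK1775 tumours, against 1562 to 2789 in control tumours, and no marker of the 19 was at 0 in both Lipo-MK1775 libraries. The control sum includes the keratinocyte markers Krt5 and Krt14, at 230.3 and 449.3 in replicate 1 and 0 in replicate 2. The part of these markers in the members' changes was not tested.

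In Free-MK1775 against control, 0 members were called by limma, against 0.0081% of all genes, and 0 members had an unadjusted p under 0.05, against 1.5% of all genes. The median change of members was 0.04, against -0.06 for all genes. Mrps10 had the smallest unadjusted p, at 16.8 and 16.1 in Free-MK1775 tumours against 11.1 and 10.2 in control tumours, and with assembled transcripts added its change was 0.07 instead of 0.58. Mrpl13 had 336.6 and 292.5 in Free-MK1775 tumours against 240.5 and 245.6 in control tumours, with no overlap. Mrpl53, a stalk protein, had 14.2 and 31.6 in Free-MK1775 tumours against 44.9 and 38.6 in control tumours. None of these passed, with a limma adjusted p of 1 for each.

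Lipo-MK1775+NLG tumours also had 0 members called by limma against the control (0.0081% of all genes), and 0 with an unadjusted p under 0.05 (2.11% of all genes). Both of their libraries were above both control libraries for 36 members and below them for 8. This is 46.2% of members higher, against 22.4% of all genes, and 10.3% lower, against 24.1% of all genes. With assembled transcripts added the counts were 30 and 9, and with median-of-ratios scaling 39 and 7. The small subunit had 16 of 26 genes higher and the large subunit 20 of 51. The median change was 0.13, against -0.02 for all genes. Mrps28, of the small subunit, had 76.8 and 79.0 in Lipo-MK1775+NLG tumours against 55.8 and 59.6 in control tumours. Mrps25 had 21.7 and 19.0 in Lipo-MK1775+NLG tumours against 12.5 and 15.6 in control tumours. Neither level was particular to this group. Mrps28 had 80.5 and 86.0 in Lipo-MK1775 tumours. Mrps25 had 21.3 and 18.8 in Free-MK1775 and 26.5 and 16.4 in Free-MK1775+NLG919 tumours. The other treated groups overlapped the control libraries for these genes. Respiratory chain genes of the nucleus had 32 of 79 higher and 12 lower in Lipo-MK1775+NLG against control.

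Free-MK1775+NLG919 tumours had 0 members called by limma against the control (0.0324% of all genes), with 5 higher and 5 lower at an unadjusted p under 0.05, against 2.85% and 20.9% of all genes. Without replicate 1 the count was 26, with 11 higher and 15 lower. Without replicate 2, the library of high mitochondrial share, it was 0. Mrps6, from a bacterial small-subunit protein, had 181.9 and 244.6 in Free-MK1775+NLG919 tumours against 89.1 and 120.8 in control tumours. Mrpl34 had 111.7 and 108.6 in Free-MK1775+NLG919 tumours against 60.8 and 72.2 in control tumours. In both genes, both libraries were high, including replicate 1 of low mitochondrial share. Their limma adjusted p-values were 0.159 and 0.161. Neither gene was high in this group alone. Mrps6 had 191.7 and 114.2 in Free-MK1775 tumours, with replicate 2 below control replicate 2. It had 125.3 and 155.1 in Lipo-MK1775+NLG and 123.4 and 120.8 in Lipo-MK1775 tumours. Mrpl34 had 91.6 and 73.3 in Free-MK1775 and 77.1 and 75.3 in Lipo-MK1775+NLG tumours, all above both control libraries. In Lipo-MK1775 tumours Mrpl34 had 70.0 and 64.7, within the control range. The Mrps6 locus overlaps Slc5a3, Gm16310 and Gm49711 on the same strand, so its values are uncertain to that extent.

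Mrps18b was called in both of the other pairwise comparisons that include Lipo-MK1775. Lipo-MK1775 against Free-MK1775 had 2 members called by limma, both lower, against 7.52% of all genes and 6.88% lower: Mrps18b by -1.18 (limma adjusted p = 0.0422) and Mrpl50 by -1.09 (limma adjusted p = 0.0489). Lipo-MK1775+NLG against Lipo-MK1775 had 3 called, all higher, against 12.4% of all genes and 11.4% higher. Mrps18b changed by 1.30 (limma adjusted p = 0.0387), Mrps31 of the head by 1.05 (limma adjusted p = 0.0476) and Mrps5 by 1.01 (limma adjusted p = 0.04997). Mrps31 had 25.9 and 28.0 in Lipo-MK1775+NLG tumours against 12.1 and 12.8 in Lipo-MK1775 tumours. These comparisons share the Lipo-MK1775 libraries with the contrast against the control. Without either Free-MK1775+NLG919 library the first count was 30 and the second 35, and without any single library of the other 4 groups both were 0.

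Combinations compared without Lipo-MK1775 had 0 members called by limma. Lipo-MK1775+NLG against Free-MK1775+NLG919 had 4 members higher and 1 lower at an unadjusted p under 0.05, against 12.3% and 1.5% of all genes, with 0.0162% of all genes called, and gave 24 calls without Free-MK1775+NLG919 replicate 1. Free-MK1775+NLG919 against Free-MK1775 had 0 higher and 2 lower at an unadjusted p under 0.05, against 1.34% and 10.3% of all genes, with 0% of all genes called, and gave 19 calls without that library. Mrps18b was a gene with a small unadjusted p in both, with changes of 0.92 and -0.79.

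The interaction, which is the change with NLG919 in the Lipo form minus the change with NLG919 in the Free form, had 8 members called by limma, 7 higher and 1 lower, against 30.6% of all genes, 29% higher and 1.62% lower. The median over members was 0.48, against 1.28 over all genes. Mrps18b was highest at 2.10 log2 units (SE 0.36, limma adjusted p = 0.0325). Mrps2, from a bacterial small-subunit protein, was at 1.41 and Mrpl44 at 1.14. Mrps2 had 40.6 and 44.0 in Lipo-MK1775+NLG tumours against 23.8 and 19.9 in Lipo-MK1775 tumours, and 38.5 and 27.3 in Free-MK1775+NLG919 tumours against 49.0 and 42.7 in Free-MK1775 tumours. The count was 41 without Free-MK1775+NLG919 replicate 1, 15 without its replicate 2, and 0 without any single library of the other 4 groups. It was also 0 with median-of-ratios or quantile scaling.

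Of 5 lists of genes that serve the mitochondrial ribosome under other names, 4 had a lower median than the members in Lipo-MK1775 against control, where all genes had a median of -0.86, with 25.2% lower and 1.6% higher. The share called lower was 37.5% for ribosome assembly, 37.5% for tRNA synthetases and 36.4% for transcription and RNA processing. It was 18.8% for translation factors and 20% for proteins under other names. The lists hold 5 to 24 genes, so each share rests on few calls, and no difference from the share over all genes was tested. Of 24 genes for ribosome assembly and rRNA modification, 9 fell and 0 rose, with a median of -0.73; Fastkd2, an RNA-binding protein of ribosome assembly, fell by 1.78 and Mtg2, an assembly GTPase, by 1.68, though its change was -0.86 with assembled transcripts added. Of 16 aminoacyl-tRNA synthetases of mitochondria, 6 fell and 1 rose, with a median of -1.17; Iars2 fell by 2.14 and Vars2 by 1.77. Of 16 translation factors, 3 fell and 0 rose, with a median of -0.70, and Gfm2, a recycling factor, fell by 1.48 and Lrpprc, which stabilises mitochondrial messenger RNAs, by 1.36. Of 11 genes for transcription and RNA processing 4 fell and 0 rose, with a median of -1.03; Tfb2m fell by 1.42 and the poly(A) polymerase Mtpap by 1.08. Among 5 mitoribosomal proteins under other names, with a median of -0.09, Ptcd3 fell by 1.70, the other 4 were not called, and Chchd1 changed by -0.58. These falls had limma adjusted p-values between 0.0135 and 0.0328. Cytosolic ribosomal protein genes went the other way, with 25 of 79 called higher and 0 lower at a median of 0.66, and nuclear respiratory chain genes had 7 called higher and 7 lower of 79 at a median of -0.03. The difference between these lists and the members was not tested.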

How the data were processed

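The authors deposited FPKM per transcript, and per the submitters' processing notes the tools were HISAT2 and StringTie, with Trim Galore and FastQC, on genome build GRCm39, without versions. The labels' protocols name an RNeasy mini plus kit and a NEBNext Ultra kit. Of 161762 transcripts, 21051 had no symbol; their sum entered only as an alternative, with 14868 of them placed by locus. The rest were summed per symbol, rescaled to nuclear transcripts, filtered at an FPKM of 1 in 2 libraries, and fitted on log2(value + 1) with limma 3.58.1 in R 4.3.3, with 1 mean per group, a variance trend and all 10 libraries. Read counts were not used, so depth is known only in relative terms. In all, 9 comparisons were made, each adjusted over all genes tested by Benjamini-Hochberg. Members, lists and tests were chosen with earlier results of these data known.

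Named genes were, per comparison, up to 10 called rises and falls without overlap, or, with fewer than 5, up to 4 each way with the smallest unadjusted p. Added were the 5 highest and lowest members, fixed genes of known role, and 2 genes per list. The text prints a share of these. Alternatives covered scaling, pseudocount, filters, transcripts, block, trend, covariate and single libraries left out. The NRF1 letters searched were shortened to 9 after the shares for a longer form had been seen. The fit was tested on simulated data.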

Additional observations from a re-analysis of the deposited data

Results flagged for a closer look

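For 8 members the change with NLG919 differed between the Lipo and Free forms, by limma's test of the interaction at an adjusted p under 0.05, against 30.6% of all genes. The differences, Lipo change minus Free change in log2 units, were 2.10 for Mrps18b, 1.65 for Mrpl3, 1.57 for Mrps5, 1.43 for Mrpl50, 1.41 for Mrps2, 1.24 for Mrps9, 1.14 for Mrpl44 and -4.10 for Mrpl20. With assembled transcripts added, the value for Mrpl20 was -0.22 and that for Mrpl44 1.03. Lipo-MK1775 and replicate 2 of Free-MK1775+NLG919 are the libraries of high mitochondrial share, and each enters this difference, so form and combination cannot be told apart from that share here.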

How the results depend on the processing

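Numbers of members called moved widely with the choices made. Such counts, here and above, are given without the share of all genes called under the same setting or with the same library left out. They are therefore not read as particular to the members. For Lipo-MK1775 against control, 7 became 21 with deposited FPKM, 14 with assembled transcripts, 26 with only the groups compared, 3 with no filter and 0 with the mitochondrial ratio as covariate. For Lipo-MK1775 against Free-MK1775, 2 became 23, 9, 17, 0 and 0 under the same settings, 1 with median-of-ratios or quantile scaling, 6 with an FPKM of 5 or more and 0 with no variance trend. For Lipo-MK1775+NLG against Lipo-MK1775, 3 became 32, 13, 28, 0 and 0, and 0 with either scaling, 8 with an FPKM of 5 or more and 1 with no variance trend. For the interaction, 8 became 14, 14, 0, 0 and 0, and 0 with either scaling. The cause was not tested.

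Leaving out single libraries gave 0 to 34, 0 to 30, 0 to 35 and 0 to 41 for these results. It gave 0 to 26 for Free-MK1775+NLG919 against control, 0 to 24 between the Lipo-MK1775+NLG and Free-MK1775+NLG919 groups and 0 to 19 for Free-MK1775+NLG919 against Free-MK1775. With a replicate block, the numbers called were 5, 0, 0 and 6 for the same 4 results. Deviations of same-numbered libraries from their group means had r from -0.22 to 0.07 over all genes tested. The labels do not say that these libraries were paired, and such r values cannot exclude it. Without the 3 libraries over 20% mitochondrial share no Lipo-MK1775 comparison could be made, and 0 members were called in the other 5.

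Signs turned for named genes. In Lipo-MK1775 against control, median-of-ratios scaling gave 0.57 for Mrpl12, 0.40 for Mrpl10, 0.38 for Mrpl11, 0.38 for Mrpl45, 0.33 for Mrpl58, 0.20 for Mrpl44, 0.38 for Mrps12, 0.24 for Mrps30, 0.40 for Mrps18a, 0.26 for Mrps36 and 0.30 for Chchd1. Quantile scaling gave 0.19 for Mrpl12, 0.25 for Mrpl10, 0.43 for Mrpl11, 0.29 for Mrpl45, 0.35 for Mrpl58, 0.16 for Mrpl44, 0.31 for Mrps12, 0.29 for Mrps30, 0.19 for Mrps18a and 0.072 for Mrps36. The covariate gave 0.14 for Mrpl10 and 0.29 for Mrps12, and Mrps18c was -0.33 with deposited FPKM and -0.10 to 0.31 over left-out libraries. In Lipo-MK1775 against Free-MK1775, Mrpl20 was -0.028 with assembled transcripts and -0.58 with the covariate, and Mrpl52 was -0.015 with deposited FPKM. For Lipo-MK1775+NLG, Mrpl18 was 0.14 against Free-MK1775+NLG919 and 0.45 against Lipo-MK1775 with assembled transcripts, and Mrpl20 was 0.71 against Lipo-MK1775 with the covariate. In the interaction, Mrps9 was -0.10 and Mrpl44 -0.16 with median-of-ratios scaling, Mrpl44 was -0.059 with quantile scaling, and Mrpl20 was 0.35 with the covariate. In the main fit all groups shared the same estimate of the spread for each gene. Every p-value there therefore also reflects the Free-MK1775+NLG919 replicates, which differed by a median of 0.86 log2 units over all genes. Within each other group this was 0.20 to 0.30. With 2 libraries a group, this shared spread and only relative depth, differences of small size were not detectable.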
